A study of Mus musculus with 11 samples.

Results

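Acinar-to-ductal metaplasia is the change in which enzyme-secreting acinar cells of the pancreas take on features of duct cells, and it was followed here through 8 genes for surface and secreted epithelial proteins: Cd44, Epcam, Prom1 and Muc1 for membrane proteins, and Clu, Spp1, Tff1 and Tff2 for secreted ones. A gene was measured through the probe set (the group of array probes summarised to 1 value) that carried its symbol alone, and 7 of the 8 genes had such a probe set, out of 19938 named genes on the array. The osteopontin gene Spp1 had none in the annotation used and was not analysed here. Total RNA came from the pancreas of wild-type C57Bl6J mice. The 6 caerulein samples came from mice given 9 hourly intraperitoneal injections of caerulein, a peptide that overstimulates acinar cells through cholecystokinin receptors and causes acute pancreatitis; the 5 NaCl samples came from mice given sodium chloride. The series record gives the caerulein dose as 50 mg/kg, a unit not checked here. It counts 6 caerulein mice, the number of caerulein samples, and 4 control mice where the sample titles count 5. The labels give neither the age nor the sex of the mice, nor the time of tissue collection. Each sample was run on 1 Affymetrix array, and values are log2 expression. Nothing in the labels says that each sample was a separate mouse, so the p-values cover only the spread among these samples, which may be technical.

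In the resting pancreas, acinar cells make digestive enzymes and the much rarer duct cells carry apical mucins and adhesion molecules on their surface. After injury or overstimulation, acinar cells can lose enzyme production and switch on duct and progenitor genes, a change that can be reversed once the injury ends. CD44 is a receptor for hyaluronan and osteopontin, and EpCAM an adhesion molecule of simple epithelia. Prominin-1 is a protein of membrane protrusions used as a progenitor marker, and MUC1 a mucin of apical epithelial membranes. Clusterin is a secreted chaperone that binds unfolded proteins, and TFF1 and TFF2 are small trefoil peptides secreted with mucus, best known from the stomach.

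Caerulein pancreas had more Cd44, Epcam and Clu RNA and less Muc1, Tff2 and Tff1 RNA than NaCl pancreas. Cd44 was 11.3-fold higher, Epcam 4.46-fold and Clu 2.70-fold. Muc1 was 2.21-fold lower, Tff2 1.76-fold and Tff1 1.38-fold. In these 6 genes all caerulein arrays lay on one side of all NaCl arrays, above in 3 genes and below in 3. Prom1 was 1.15-fold lower with overlapping groups, and its call depended on single arrays. In whole-tissue RNA, fewer cells of a type and less RNA per cell cannot be told apart.

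By the limma fit over all 35556 probe sets (Benjamini-Hochberg adjusted p under 0.05), 3 of the 7 measured genes were higher and 4 lower. Over all 19938 named genes, 54.6% passed by the same rule, 20.3% higher and 34.3% lower; over all probe sets 44.2% passed, 16.4% higher and 27.8% lower. Groups without overlap were seen in 37.2% of all named genes, with caerulein above in 16.7% and below in 20.6%. The members are few, and no more is read from their counts. The median difference over all named genes was -0.13, and the differences below are to be read beside it. When the arrays were shifted to an equal mean of 16 commonly used reference genes, the median over all probe sets was -0.73, against -0.11 as deposited, and every difference was lower by the same step. Under such a step the 4 falls could only deepen. The 3 rises were larger than the step and stayed positive, so their direction was not put to a separate test.

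Of the 7 measured members, 4 matched the RefSeq promoter table (build GRCm38.p6), and the promoters of those 4 are shown. Cd44 and Epcam were higher and Muc1 was lower, while the lower call of Prom1 depended on single arrays. Each runs 5′ to 3′ from 250 bases before to 50 bases after a gene start. Capitals mark 3 motifs searched on both strands: the AP-1 motif TGANTCA, the GC box GGGCGG and the TATA box TATAAA. No match overlapped another. For Prom1, which has 2 starts in the table, the upstream one is printed.
Cd44 (chr2:102901616-102901915, minus strand): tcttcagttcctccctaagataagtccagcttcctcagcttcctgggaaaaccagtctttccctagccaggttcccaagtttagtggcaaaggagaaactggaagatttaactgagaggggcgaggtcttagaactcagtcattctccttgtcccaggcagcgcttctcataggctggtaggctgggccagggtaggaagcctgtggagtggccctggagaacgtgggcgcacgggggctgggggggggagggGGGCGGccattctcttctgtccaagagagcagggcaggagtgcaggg
Epcam (chr17:87635729-87636028, plus strand): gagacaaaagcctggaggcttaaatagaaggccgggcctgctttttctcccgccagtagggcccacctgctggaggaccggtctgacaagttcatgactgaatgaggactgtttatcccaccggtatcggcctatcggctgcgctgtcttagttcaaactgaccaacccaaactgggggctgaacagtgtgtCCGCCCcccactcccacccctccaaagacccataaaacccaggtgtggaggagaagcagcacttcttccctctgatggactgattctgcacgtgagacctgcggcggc
Muc1 (chr3:89228806-89229105, plus strand): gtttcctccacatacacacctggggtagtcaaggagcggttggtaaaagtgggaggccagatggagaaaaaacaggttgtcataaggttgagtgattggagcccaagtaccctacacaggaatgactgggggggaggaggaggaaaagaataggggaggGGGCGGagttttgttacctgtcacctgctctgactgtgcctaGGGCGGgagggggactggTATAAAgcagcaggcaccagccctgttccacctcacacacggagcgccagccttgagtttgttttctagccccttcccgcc
Prom1 (chr5:44101687-44101986, minus strand): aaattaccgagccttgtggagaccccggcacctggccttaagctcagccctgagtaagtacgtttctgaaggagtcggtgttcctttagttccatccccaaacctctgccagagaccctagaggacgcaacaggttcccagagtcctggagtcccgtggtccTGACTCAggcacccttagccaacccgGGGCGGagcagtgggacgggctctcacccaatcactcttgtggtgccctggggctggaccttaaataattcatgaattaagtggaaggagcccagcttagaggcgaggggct

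The rising genes Cd44 and Epcam held 1 GC box each (in Epcam on the reverse strand, as CCGCCC) and no AP-1 or TATA motif in these 300 bases. Muc1, which fell, held 2 GC boxes and a TATA motif whose first base lay at position -31 from the start. The upstream Prom1 window held 1 AP-1 motif, at -88, and 1 GC box. The other Prom1 window, not printed, held 1 AP-1 motif at -189. Among all 32851 promoters of the table, 7.81% held the AP-1 motif, 35.7% the GC box and 13.6% the TATA motif. A match describes letters, not a bound site. The measured members without a match were Clu, Tff1 and Tff2.

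Cd44, the hyaluronan receptor, showed the widest separation. Its log2 expression in caerulein pancreas was lowest at 8.68, with a median of 8.92 and a highest value of 8.95, against 5.22, 5.53, 5.33, 5.43 and 5.36 in the 5 NaCl arrays. The lowest caerulein array lay 3.15 above the highest NaCl array. The log2 difference was 3.50 (SE 0.07, 95% interval 3.34 to 3.66, limma adjusted p = 9.8e-12), which ranked 30 among the rises of 19938 named genes. Replicate 2 was the low array of the caerulein group, and the other 5 lay between 8.85 and 8.95.

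Epcam, the adhesion molecule of simple epithelia, varied more between arrays. Caerulein arrays ran from 8.24 to 8.72 with a median of 8.42, against 6.61, 6.02, 6.43, 6.30 and 6.09 in NaCl arrays. The spread within either group, 0.48 in caerulein and 0.59 in NaCl, was well below the gap of 1.63 between them. The log2 difference was 2.16 (SE 0.12, 95% interval 1.90 to 2.42, limma adjusted p = 2.1e-08), at rank 189 among the rises.

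Clu encodes the secreted chaperone clusterin, which many epithelia make under stress. Its lowest, median and highest caerulein values were 12.81, 12.97 and 13.18, against 11.70, 11.50, 11.43, 11.50 and 11.59 in NaCl arrays. All caerulein arrays were higher, by a gap of 1.10. The difference was 1.43 (SE 0.08, 95% interval 1.26 to 1.60, limma adjusted p = 1.4e-08), at rank 598. With equal reference gene means it was 0.80, still past the threshold.

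**Figure D1:**
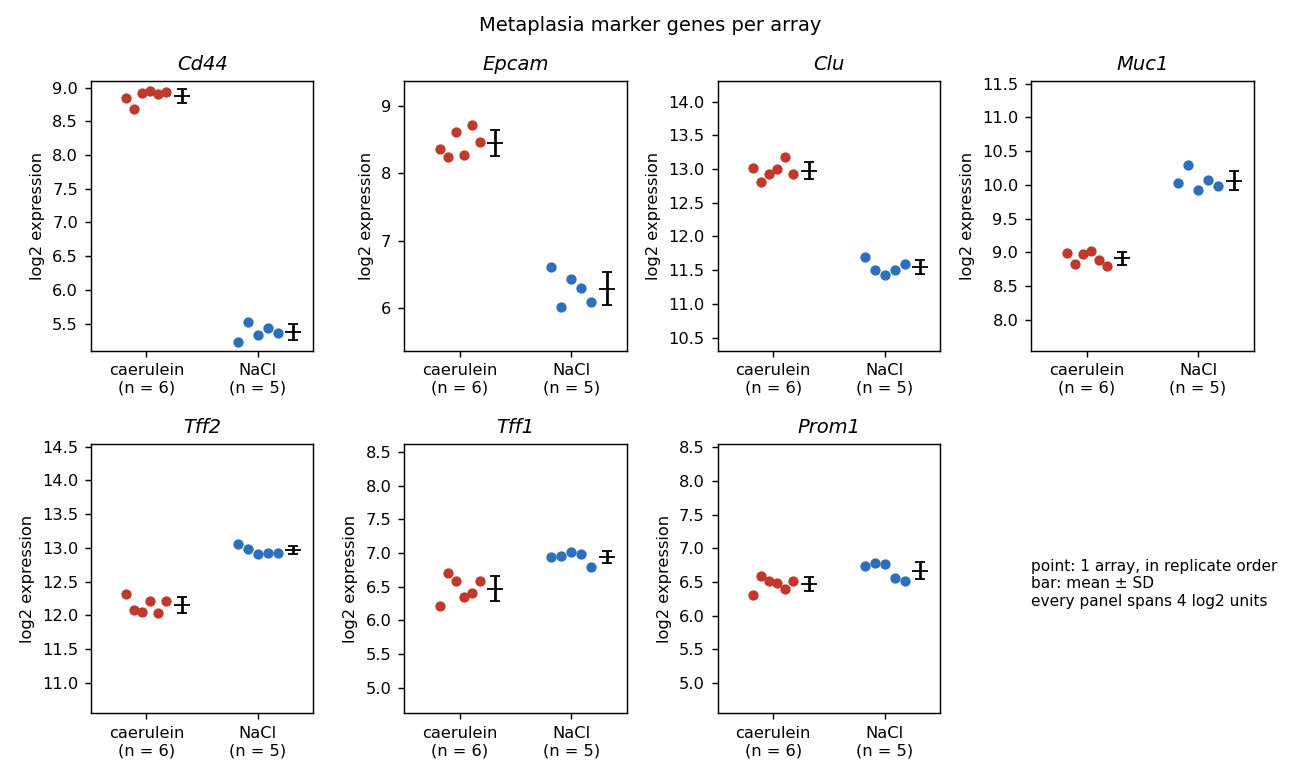
Log2 expression of the 7 measured marker genes on each array (vertical axis; every panel spans the same range), with caerulein arrays left (red, n = 6) and NaCl arrays right (blue, n = 5), and mean ± SD bars. Cd44 caerulein arrays sit between 8.68 and 8.95, above NaCl arrays at 5.22 to 5.53, whereas the Prom1 groups overlap.

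Muc1, which encodes a transmembrane mucin, was lower where Cd44 and Epcam were higher. Caerulein arrays ran from 8.79 to 9.02 with a median of 8.93, against 10.03, 10.29, 9.92, 10.07 and 9.98 in NaCl arrays. The groups were 0.90 apart, with every caerulein array lower. The difference was -1.14 (SE 0.08, 95% interval -1.31 to -0.98, limma adjusted p = 1.2e-07), at rank 204 among the falls.

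Tff2, a trefoil peptide also known as spasmolytic polypeptide, was lower on every caerulein array. The lowest, median and highest values were 12.03, 12.14 and 12.32 in caerulein pancreas, against 13.06, 12.99, 12.91, 12.93 and 12.93 in NaCl pancreas. The NaCl arrays agreed within 0.14 of each other and the caerulein arrays within 0.28. The difference was -0.82 (SE 0.07, 95% interval -0.96 to -0.67, limma adjusted p = 8.2e-07), at rank 467 among the falls.

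Tff1, the trefoil peptide of gastric surface mucus, had a smaller difference. Caerulein arrays ran from 6.21 to 6.70 with a median of 6.49, against 6.94, 6.96, 7.02, 6.99 and 6.79 in NaCl arrays. The nearest arrays of the 2 groups were only 0.09 apart. The difference was -0.47 (SE 0.09, 95% interval -0.66 to -0.27, limma adjusted p = 0.0011). Whether its probe set lay above background is unknown, since no detection calls were used here.

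Prom1, the progenitor marker, had the smallest difference of the 7 genes. Its lowest, median and highest caerulein values were 6.31, 6.50 and 6.59, against 6.73, 6.78, 6.76, 6.56 and 6.52 in NaCl arrays. NaCl replicates 4 and 5 fell within the caerulein range. The difference of -0.20 (SE 0.07, 95% interval -0.36 to -0.04, limma adjusted p = 0.0419) had an interval that included the all-gene median of -0.13. Leaving out any 1 of 8 of the 11 arrays ended the call: caerulein replicates 1, 3, 4, 5 or 6 or NaCl replicates 1, 2 or 3. The adjusted p ran from 0.0253 to 0.0943 over all 11 omissions.

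**Figure D2:**
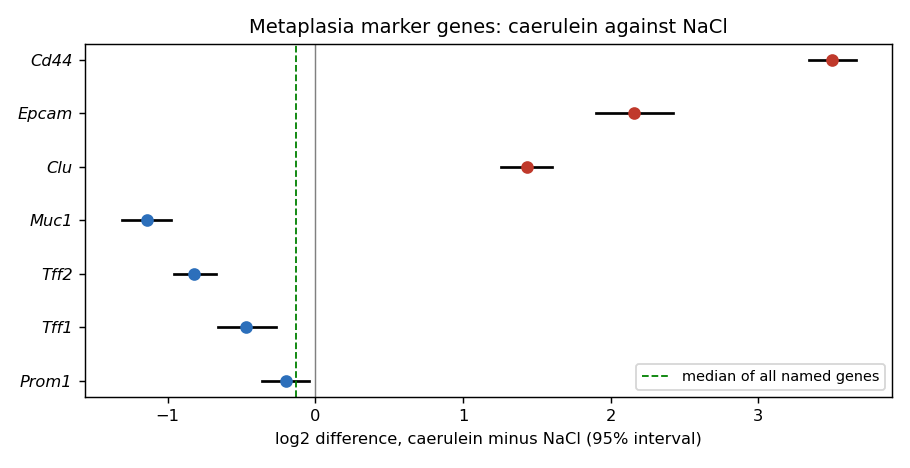
Log2 difference (caerulein minus NaCl, horizontal axis) of the 7 marker genes with 95% intervals from the limma fit of 6 caerulein and 5 NaCl arrays; the dashed line is the median of all named genes at -0.13. Cd44 (3.50), Epcam (2.16) and Clu (1.43) lie to the right of 0 and the other 4 genes to the left, with the Prom1 interval spanning the dashed line.

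Within the caerulein group the 7 genes did not order the arrays alike. Replicate 2 was lowest for Cd44, Epcam and Clu but highest for Tff1 and Prom1. Replicate 5 was highest for Epcam and Clu and lowest for Tff2. Replicates 1 to 3 and 4 to 6 overlapped for all 7 genes. Their means were 8.82 and 8.93 for Cd44, 8.41 and 8.49 for Epcam and 12.92 and 13.03 for Clu.

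Genes that work with each marker were listed by role, and the lists were read by their counts beside the all-gene shares. The partners of EpCAM had 7 of 11 measured genes higher and 1 lower, and their median difference was 1.06 (0.44 with equal reference gene means, where 5 were higher and 4 lower). A further gene fell when caerulein replicate 5 or NaCl replicate 5 was left out. Cd9, a tetraspanin that associates with EpCAM, was 7.48-fold higher (9.84 ± 0.04 in caerulein, n = 6, and 6.94 ± 0.12 in NaCl, n = 5, SD; limma adjusted p = 1.1e-11). St14, which encodes matriptase, a protease that cleaves EpCAM, was 6.30-fold higher (2.66 on the log2 scale, SE 0.09, limma adjusted p = 3.3e-10). Psen2, a catalytic subunit of gamma-secretase, was lower by 0.52 on the log2 scale (-0.52, SE 0.07, limma adjusted p = 5.4e-05). The claudin Cldn7, which binds EpCAM, and Spint1, an inhibitor of matriptase, differed by 2.10 and 1.20. Spint2, a relative of Spint1, differed by -0.17 and did not pass (limma adjusted p = 0.0569). It was lower with each of the 4 rescalings (-0.80 to -0.23). The protease gene Prss8 differed by -0.07 and did not pass as deposited. Cldn7, Spint1, Spint2 and Prss8 were chosen after their values were seen.

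Among partners of CD44 and the hyaluronan system, 10 of 18 rose and 1 fell; the median difference was 0.51, and -0.12 with equal reference gene means, where 6 were higher and 8 lower. The mean log2 level of the 18 genes was highest in caerulein replicate 6 (6.84) and lowest in replicate 3 (6.54), the arrays that were also highest and lowest for the mean of 13 macrophage and monocyte markers (7.07 and 6.24); the part of those cells in this list was not tested. Msn encodes moesin, which ties the CD44 tail to actin, and it was 5.98-fold higher (2.58 on the log2 scale, SE 0.14, limma adjusted p = 1.8e-08). Vcan, a proteoglycan that binds hyaluronan, was 5.03-fold higher (2.33, SE 0.17, limma adjusted p = 2.1e-07). Nf2, which encodes merlin, a relative of moesin, was lower (-0.44, SE 0.08, limma adjusted p = 0.00109). Esrp1 and Esrp2, epithelial splicing factors that act on CD44 exons, differed by 1.00 and 0.82 and were chosen after their values were seen. The array values used here give 1 summary per gene and do not separate CD44 splice forms.

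Of 13 membrane mucins and MUC1 partners, 5 rose and 5 fell, around a median of -0.04 whose sign turned with renewed quantile normalisation (0.09) and with cyclic loess (0.10). The number lower was 3 when caerulein replicate 1, 2, 5 or 6 or NaCl replicate 2, 3 or 5 was left out, and 1 with either of those normalisations. None of the 6 mucins of the list was among the higher genes, and 4 of them were among the lower ones. The 4 calls were all lost with renewed quantile normalisation and with cyclic loess. With equal reference gene means all 6 mucins were lower, as were C1galt1c1 and Gcnt1, and only Egfr and Lgals3 stayed higher. The mean values of the 6 mucins were near or below the median probe set of the arrays, and whether they lay above background is unknown. Egfr, a receptor tyrosine kinase that binds MUC1, was 10.2-fold higher (9.66 ± 0.22 in caerulein, n = 6, and 6.31 ± 0.19 in NaCl, n = 5, SD; limma adjusted p = 3.3e-10). Lgals3, which encodes the MUC1-binding lectin galectin-3, was 3.38-fold higher (1.76, SE 0.16, limma adjusted p = 2.1e-06). C1galt1c1, a chaperone for mucin-type glycan synthesis, was lower (-0.39, SE 0.09, limma adjusted p = 0.00272). The mucin Muc13 had a difference of -0.27 (SE 0.08, limma adjusted p = 0.0152) (adjusted p = 0.103 with renewed quantile normalisation and 0.138 with cyclic loess).

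**Figure D3:**
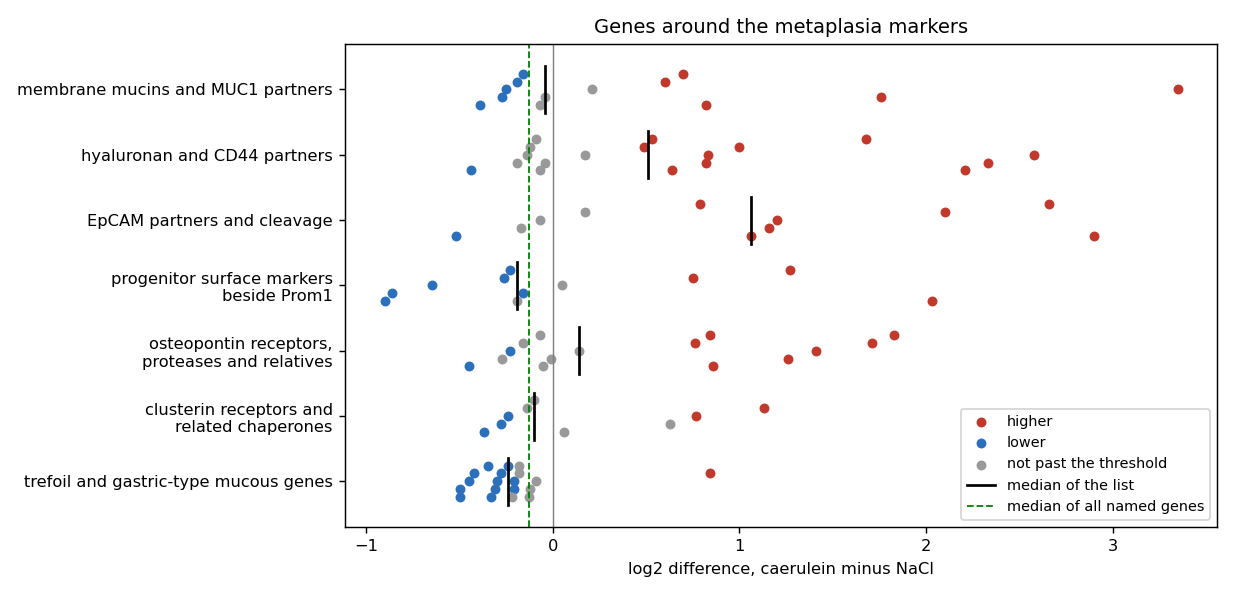
Log2 difference (caerulein minus NaCl, horizontal axis) of every measured gene in the 7 lists around the markers, 1 point a gene, red where higher, blue where lower and grey where not past the adjusted p threshold of 0.05; black bars are list medians and the dashed line is the median of all named genes. The EpCAM partners have the median farthest right (1.06) and the trefoil and gastric-type mucous genes the one farthest left (-0.24).

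The trefoil and gastric-type mucous list had 12 of 19 genes lower and 1 higher, around a median of -0.24. Renewed quantile normalisation gave 6 lower genes, cyclic loess 5 and equal reference gene means 18. Only 8 of the 19 genes were among the brighter 50 percent of probe sets, and 7 of these were lower in that fit. Whether the dimmer genes of the list lay above background is unknown. Aqp5, a water channel of secretory epithelia, was lower (-0.50, SE 0.07, limma adjusted p = 0.00014), as was Spdef, a transcription factor of mucous cells (-0.50, SE 0.07, limma adjusted p = 0.00016). Anxa10, an annexin of gastric epithelium, was the exception, at 5.26 ± 0.44 in caerulein (n = 6) and 4.42 ± 0.14 in NaCl (n = 5, SD; limma adjusted p = 0.00241, and 0.26 with equal reference gene means). Of 10 markers of stomach and duodenum epithelium, 4 were lower and 0 higher, a share near that of all named genes. The lactase gene Lct (-0.45, SE 0.09, limma adjusted p = 0.00106) and Atp4b, a subunit of the gastric proton pump (-0.37, SE 0.10, limma adjusted p = 0.00842), had the largest differences. The number lower was 10 with equal reference gene means, 7 at an equal 75th percentile, 2 with renewed quantile normalisation and 1, Lct, with cyclic loess. The mean log2 level of the 10 markers was 4.92 to 5.04 in caerulein arrays and 5.17 to 5.24 in NaCl arrays. These levels lay below the array medians, which were themselves lower in caerulein arrays, and whether the markers lay above background is unknown. Tff1 and Tff2 were lower too, but Tff2 was far brighter (means 12.15 in caerulein and 12.96 in NaCl). The part of stomach and duodenum epithelium in the Tff1 and Tff2 results was not tested.

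Progenitor surface markers other than Prom1 were mixed, with 3 of 11 higher and 6 lower around a median of -0.19 (-0.82 with equal reference gene means, where 2 were higher and 8 lower). Itga6, a laminin-binding integrin chain, was 4.07-fold higher (2.03, SE 0.10, limma adjusted p = 7.2e-09), and Alcam, an adhesion molecule, 2.41-fold higher (1.27, SE 0.08, limma adjusted p = 6.2e-08). Prom2, the close relative of Prom1, was 1.82-fold lower (-0.86, SE 0.08, limma adjusted p = 2.7e-06). Aldh1a1, a retinaldehyde dehydrogenase, was 1.87-fold lower (-0.90, SE 0.09, limma adjusted p = 4.7e-06).

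Of 15 osteopontin receptors, proteases and relatives, 7 rose and 2 fell, around a median of 0.14 (-0.49 with equal reference gene means, where 4 were higher and 8 lower). The integrin chain gene Itgb1 was 3.55-fold higher (1.83, SE 0.07, limma adjusted p = 1.3e-09) and Itga5 3.27-fold higher (1.71, SE 0.18, limma adjusted p = 6.6e-06). Itga8 was lower (-0.45, SE 0.09, limma adjusted p = 0.00135), and so was Itgb3 (-0.23, SE 0.07, limma adjusted p = 0.0208, and 0.149 after cyclic loess). Of 9 clusterin receptors and related chaperones, 2 rose and 3 fell, around a median of -0.10 (-0.72 with equal reference gene means, where 1 was higher and 6 lower); 1 fell when caerulein replicate 1 or NaCl replicate 3 was left out. The 2 that rose were Tgfbr1 and Tgfbr2, receptor chains for transforming growth factor beta, at 1.13 (SE 0.10) and 0.77 (SE 0.11; limma adjusted p = 1.0e-06 and 8.0e-05), and the Tgfbr2 call ended with equal reference gene means (0.14, adjusted p = 0.217). Lrp8, a receptor that binds clusterin, differed by -0.28 (limma adjusted p = 0.0159, but 0.113 with renewed quantile normalisation and 0.217 with cyclic loess). Apoe, another lipid-carrying protein, differed by -0.37 (limma adjusted p = 0.0407), a call lost when caerulein replicate 1, 2, 3 or 5 or NaCl replicate 1, 3 or 4 was left out (highest adjusted p = 0.0964).

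Genes with the most similar profile were sought among 17997 other protein-coding genes, by the root mean square difference over the 11 arrays after each gene was set relative to its own NaCl mean. Closest to Cd44 was Cdh1, the gene of the epithelial cadherin (0.155 log2 units), which was 11.1-fold higher, followed by the fatty acid elongase gene Elovl7 (0.169). The nearest profiles to Epcam were those of Grb10, an adaptor of growth factor receptors (0.136), and Tmbim1 (0.140). Clu was nearest to Niban2 (0.066) and Anapc2 (0.083), Muc1 to the peroxiredoxin gene Prdx4 (0.120) and the clock gene Per2 (0.121), and Tff2 to Gatd3a (0.045) and the ribonuclease gene Rnasek (0.063). Tff1 was nearest to Tmem74b (0.079) and Pcdhb2 (0.081), and Prom1 to Hoxa2 (0.053) and Nfkbid (0.057). Small differences favour small distances, so the distances are not to be ranked across members.

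The arrays carried the markers of pancreas: 7 measured acinar markers had a mean log2 level of 13.37 to 13.45 in caerulein and 13.71 to 13.82 in NaCl, and 1 of them, the acinar transcription factor gene Bhlha15, was 4.00-fold lower. The 6 digestive enzyme genes of the list had differences of -0.12 to 0.03 that did not pass in this fit. They were very bright, with group means of 14.17 to 14.64. The number lower of the 7 markers was 5 with a trended robust prior, 5 at an equal 75th percentile and 7 with equal reference gene means. With renewed quantile normalisation and with cyclic loess the 6 enzyme genes ran from -0.04 to 0.13, and none passed. At the equal 75th percentile the enzyme genes that passed included Cela2a, which encodes an elastase (-0.19, limma adjusted p = 0.00921), a gene chosen after its values were seen. Of 9 duct markers, 4 were higher and 2 lower, led by the keratin genes Krt19, 20.9-fold higher, and Krt7, 3.85-fold higher. Cftr (0.44, limma adjusted p = 0.00271) and Car2 (0.29, limma adjusted p = 0.0389) were also higher, with mean values below the array medians. The Car2 groups overlapped. Its call ended at an equal 75th percentile, and without caerulein replicate 1, 3, 4, 5 or 6 or NaCl replicate 1, 2 or 5. Sox9 (0.41, limma adjusted p = 0.0598) did not pass. The 2 lower duct markers were Pkhd1 (-0.44, limma adjusted p = 0.00147) and Atp1b1 (-0.25, limma adjusted p = 0.00845). The duct list median of 0.29 became -0.34 with equal reference gene means. Only Krt19 and Krt7 stayed higher under that scaling, while Bicc1, Slc4a4, Pkhd1, Car2 and Atp1b1 were lower. Against the label of metaplasia markers, Muc1, Tff1 and Tff2 were lower, and 3 of the 7 measured genes were higher.

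Cd44 and Clu are also made by leukocytes and other cells, so markers of other cell types are given beside them. Of 13 macrophage and monocyte markers, 8 rose and 0 fell. Cd14, a receptor for bacterial lipopolysaccharide, was 4.94-fold higher, and Lyz2, the lysozyme of macrophages, 4.02-fold. The markers Csf1r (0.16), Mrc1 (0.33), C1qa (0.13), C1qb (0.15) and C1qc (-0.21) did not pass. The list median was 0.46 and became -0.16 with equal reference gene means, where 5 were higher and 5 lower. The higher ones were Cd14, Lyz2, Cd68, Itgam and Ccr2, and the lower ones Csf1r, C1qa, C1qb, C1qc and Cd163. The mean log2 level of the 13 markers was 6.24 to 7.07 in caerulein arrays and 5.68 to 5.79 in NaCl arrays. Within the caerulein group this mean spanned 0.82 between arrays, against 0.28 for Cd44, 0.48 for Epcam and 0.37 for Clu. The first span is of a mean of 13 genes and the others of single genes, which are unlike measures. Single markers of the list differed in spread: Cd14 ran from 7.14 to 7.69 in caerulein arrays and Lyz2 from 7.71 to 9.52. The macrophage and monocyte mean was highest in replicate 6, where Cd44 was 8.93. It was almost equally low in replicates 3 (6.24) and 2 (6.25), where Cd44 was 8.92 and 8.68. Replicate 2 was the lowest caerulein array for Cd44, Epcam and Clu. The part of macrophages and monocytes in the Cd44 and Clu results was not tested.

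**Figure D4:**
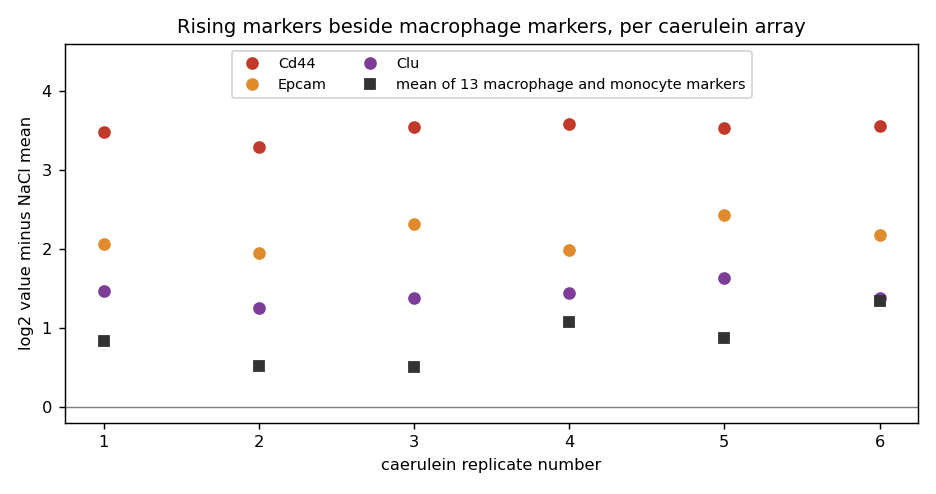
Log2 value minus the NaCl mean (vertical axis) on each of the 6 caerulein arrays (horizontal axis, replicate number) for Cd44, Epcam, Clu and the mean of 13 macrophage and monocyte markers. The macrophage mean, of 13 genes, spans 0.82 between arrays and Cd44, a single gene, spans 0.28. These are unlike measures, and the part of macrophages in the Cd44 result was not tested.

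The other marker lists were read in the same way, beside the shares of all named genes (20.3% higher and 34.3% lower). Neutrophil markers had 2 of 10 genes lower and 0 higher, Camp (-0.26, limma adjusted p = 0.0152) and Mpo (-0.23, limma adjusted p = 0.0184). Both calls were lost with renewed quantile normalisation (adjusted p = 0.18 and 0.354) and with cyclic loess. With these normalisations S100a8 became higher, at 0.48 (adjusted p = 0.0334) and 0.53 (adjusted p = 0.024). With equal reference gene means 8 of the 10 were lower. The mean log2 level of the list was 4.54 to 5.08 in caerulein arrays and 4.72 to 4.80 in NaCl arrays, below the array medians. Whether these genes lay above background is unknown. Lymphocyte markers had 5 of 8 lower and 0 higher, led by the T cell receptor partners Cd8a (-0.39) and Cd4 (-0.37). The number lower was 3 without NaCl replicate 2, 1 with cyclic loess and 8 with equal reference gene means. Mean log2 levels of the lymphocyte list were at most 5.25 in caerulein arrays and 5.34 in NaCl arrays, near or below the array medians. Those medians were themselves lower in caerulein arrays, and whether the lymphocyte markers lay above background is unknown. Islet markers had 3 of 9 lower and 0 higher, a share lower near that of all named genes, led by Pcsk1 (-0.42) and Ppy (-0.30). The number lower was 1 of 9 without caerulein replicate 4 or 6 or NaCl replicate 4. It was 0 with cyclic loess and 7 with equal reference gene means. The hormone genes Ins2 (0.02), Gcg (0.27), Iapp (0.25) and Sst (-0.42) did not pass. The Ppy call held in only 2 of 11 single omissions, those of caerulein replicate 3 and NaCl replicate 1. Fibroblast and stellate markers had 3 of 10 higher and 1 lower, led by Col3a1 (0.83) and Lum (-0.77), with 0 higher and 7 lower at equal reference gene means and 2 lower without caerulein replicate 2 or 6 or NaCl replicate 5. Endothelial markers had 2 of 8 higher and 2 lower, and 1 lower without caerulein replicate 1, 3, 4 or 6 or NaCl replicate 2 or 3. The higher genes were Pecam1 (0.39) and Cdh5 (0.38), whose sign turned with equal reference gene means (-0.23 and -0.25), where 8 were lower. No mesothelial marker passed by limma (0 of 7), although 2 had an unadjusted p under 0.05, the smaller that of Lrrn4 (adjusted p = 0.0511); 7 were lower with equal reference gene means, and 1 or 2 passed when caerulein replicate 2, 3, 4 or 5 or NaCl replicate 5 was left out.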

How the data were processed

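Total RNA of 11 mouse pancreas samples was hybridised to 1 Affymetrix array each. The authors deposited log2 expression values, for which the submitters' processing notes name RMA (an array summarisation), oligo and limma, without versions or a genome build. RMA can narrow differences of very dim and very bright probe sets. Precision is set by how many arrays there are. No detection calls, slides or scan dates were used. Of 35556 probe sets, 21789 carried 1 gene symbol, 1621 several and 12146 were not listed; a gene took the brightest probe set, by its mean over the 11 arrays.

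Groups came from the sample titles. The 6 caerulein arrays were set against the 5 NaCl arrays without covariates, using lmFit and eBayes of limma 3.58.1 (R 4.3.3), two-sided, with Benjamini-Hochberg adjustment over all probe sets and a threshold of 0.05. Adjusted p-values in the text are from such limma fits. Differences are caerulein minus NaCl; folds are 2 to the power of the difference. The fit was tested on simulated data. The members, lists and tests were chosen with earlier results of these data known. Genes named beyond the rule that follows were chosen after their values were seen. From each list of partner genes the text names the 2 largest changes past the threshold in each direction, from each cell type list the 2 largest, or the member with the smallest p where none passed, and for each member the 2 nearest profiles. Alternatives were a trended robust prior, array quality weights, 4 rescalings, a fit on the brighter 50 percent only, a replicate block, and omission of each array in turn.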

Additional observations from a re-analysis of the deposited data

Results flagged for a closer look

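In 128 groups of arrays (caerulein or NaCl, for each gene named), 5 held a lone array whose distance to its neighbour took up most of the group's range; chance gives about 1 group in 20. Cd44 on caerulein replicate 2 was the lowest of its group at 8.68, next to 8.85. Anxa10 on caerulein replicate 5 was the highest at 6.12, next to 5.23. Among NaCl arrays, Vcan was lowest on replicate 2 at 4.51, next to 5.04. Mpo was highest on NaCl replicate 3 at 5.84, next to 5.64. Grb10 was highest on NaCl replicate 1 at 7.63, next to 7.30. Leaving out any single array kept the Cd44 difference between 3.46 and 3.54 and the Anxa10 call past the threshold (highest limma adjusted p = 0.00741).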

How the results depend on the processing

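Over 19 alternatives, of which 11 left out 1 array each, the 6 markers other than Prom1 kept their direction and their call. With single arrays left out their log2 differences ran from 3.46 to 3.54 for Cd44, 2.09 to 2.24 for Epcam, 1.39 to 1.47 for Clu, -1.18 to -1.09 for Muc1, -0.85 to -0.79 for Tff2 and -0.51 to -0.42 for Tff1. Under equal reference gene means they were 2.88, 1.53, 0.80, -1.77, -1.44 and -1.09 in the same order. That shift is the same for every gene, so the falls could only deepen. Prom1 did not pass with array quality weights (-0.17, adjusted p = 0.0656), after cyclic loess (-0.19, adjusted p = 0.0621) or with the replicate number as a block (-0.21, adjusted p = 0.0691), and ran from -0.24 to -0.17 with single arrays left out; the cause was not tested. The block changed no other marker's call; with it 5452 probe sets were higher and 7909 lower. Correlations of same-numbered arrays' deviations from the group means were -0.052 to 0.060, under the 0.1 asked of every pair, so the numbers were not taken as pairs. As a hint from the data and not from the design, 4 of 5 caerulein arrays correlated best with the NaCl array of their own number, the exception being replicate 4.

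Of called probe sets, 5829 were higher and 9884 lower (62.9% lower). The numbers were 2077 and 29710 with equal reference gene means (93.5% lower). After cyclic loess 5467 were lower (46.4%), and 6446 without the dimmer 50 percent of probe sets (54.1%), where fewer were tested. The share lower was 72.1% at an equal 75th percentile and 56.3% after a second quantile normalisation. Of 646 counts for the lists under alternatives, 547 were within 1.5 times the reported count and 99 were not. Each measured member had 1 probe set of its own, so no other probe set could be tried, and slide or scan blocks were not run.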

Other observations

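The 16 measured reference genes used for one rescaling were not level between the groups. As deposited, 9 of them were higher in caerulein pancreas and 0 lower, with a median difference of 0.34 and a highest of 2.93, against a median of -0.13 for all named genes. Their mean log2 level was 9.26 to 9.45 in caerulein arrays and 8.62 to 8.86 in NaCl arrays. The rescaling to their equal mean therefore lowers every caerulein difference, those of the markers included.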
